A study of Mus musculus with 12 samples.

Results

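Cytosolic ribosomal proteins are the proteins of the ribosomes that translate nuclear-encoded mRNAs. Their genes were followed across the left ventricles of 12 male mice of strain C57BL6, each heart read on its own Affymetrix genome-wide mouse array. Members were the probe sets whose single gene symbol in the platform annotation has the form Rpl or Rps followed by a number, by p and a number, or by a, with an optional closing a or x. This gave 42 of the 18193 genes that have a probe set with a single symbol, and 94 of 45101 probe sets: 42 probe sets of 22 large-subunit (Rpl) genes and 52 of 20 small-subunit (Rps) genes. A further 110 probe sets list a ribosomal protein gene together with other genes, and no gene is named from them. The transgene in the TG mice encodes ATF6-MER, a fusion of the endoplasmic reticulum stress transcription factor ATF6 to a modified estrogen receptor domain that tamoxifen activates, and NTG mice are littermates without it. The 4 groups of 3 mice were TG mice given tamoxifen, TG mice given vehicle, NTG mice given tamoxifen and NTG mice given vehicle. The labels give no promoter for the transgene, no tamoxifen dose and no time between treatment and sampling. Each array is a separate mouse, and the whole ventricle wall was sampled, so fewer cells of a type and less RNA per cell cannot be told apart.

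Each ribosome has a small subunit, which reads the mRNA, and a large subunit, which joins the amino acids. Both are built from ribosomal RNA and a set of proteins needed in near equal amounts, so their genes are usually expressed at high and closely matched levels. Ribosomal protein mRNAs of mammals start with a terminal oligopyrimidine tract, a run of C and T bases right at the start of transcription, through which the mTORC1 kinase pathway and the RNA-binding protein Larp1 adjust their translation. ATF6 is released from the endoplasmic reticulum when misfolded proteins gather there, and it raises transcription of chaperone genes such as Hspa5.

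The labels of TG vehicle 3 conflict, TG tamoxifen 1 came from an older mouse, and the signal of NTG tamoxifen 1 goes against its label. TG vehicle 3 has vehicle in its title and tamoxifen in its treatment field, and the mouse of TG tamoxifen 1 was 40 weeks old by its label, against about 30 for the rest. Groups were taken from the titles. For Hspa5, TG vehicle 3 read 15.94 on the log2 scale, beside 16.39 and 15.76 on TG vehicle 1 and 2. The TG tamoxifen arrays read 18.37 to 18.47, so on this gene TG vehicle 3 was like the other vehicle arrays, as in its title. The probe set of Esr1, the estrogen receptor gene, read 16.66 to 18.25 on the log2 scale on the TG arrays and 10.88 or less on 5 of the 6 NTG arrays, but 17.72 on the array labelled NTG tamoxifen 1. That array also read 18.05 for Hspa5, against 15.65 and 15.49 on NTG tamoxifen 2 and 3 and 18.37 to 18.47 on the TG tamoxifen arrays. Counts of ribosomal protein probe sets that passed the test are therefore given with and without NTG tamoxifen 1 in each comparison. Most other values are given only with it. The 3' to 5' signal ratio of beta-actin, a measure of RNA integrity, was 1.75 to 1.88 on TG tamoxifen, 1.32 to 1.68 on TG vehicle, 1.78 to 1.97 on NTG tamoxifen and 2.12 to 2.43 on NTG vehicle arrays, and its part in the results below was not tested other than as a covariate. All 10 cardiomyocyte, 7 endothelial and 7 fibroblast markers lay above the intensity filter. So did 8 of 9 macrophage and leukocyte and 4 of 5 smooth muscle and pericyte markers measured. The same held for 5 of 7 cell cycle, 1 of 3 adipocyte and 1 of 2 red blood cell genes.

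The ribosomal protein probe sets were bright and repeatable. A level here is log2(intensity + 16) after quantile normalization, and the brightness of a probe set also depends on its probes, so levels are compared between arrays and not between genes. Of the 94 probe sets, 77 had a mean at or above the median of all probe sets (38 Rpl and 39 Rps, from 40 genes) and were tested. The 17 below it were 4 Rpl and 13 Rps probe sets, and they left Rpl14 and Rps16 without a tested probe set. Of the 77 tested, 66 (85.7%) lay in the brightest 10% of all probe sets and 49 in the brightest 1%. The median standard deviation (SD) within a group of 3 arrays was 0.13 log2 for the 77, 0.33 for all 22518 probe sets tested and 0.24 for those in the brightest 10%. Among the 17 dim probe sets it was 0.95.

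The first comparison set tamoxifen against vehicle in the transgenic heart. It cannot tell the effect of the drug from that of ATF6-MER activation. Large-subunit probe sets were higher on every TG tamoxifen array than on any TG vehicle array by their median, while small-subunit probe sets were less separated. The median Rpl probe set stood above its own 12-array mean by 0.24, 0.22 and 0.20 log2 on TG tamoxifen 1, 2 and 3, and by -0.09, 0.03 and 0.01 on TG vehicle 1, 2 and 3. NTG tamoxifen arrays gave 0.13, 0.05 and -0.02, and NTG vehicle arrays gave -0.15, -0.22 and -0.16. The Rpl medians of the TG tamoxifen arrays were thus the highest of the 12 and those of the NTG vehicle arrays the lowest. For Rps the same measure was 0.12, 0.10 and -0.02 on TG tamoxifen, -0.13, -0.05 and -0.12 on TG vehicle, 0.12, 0.12 and -0.02 on NTG tamoxifen, and -0.04, -0.08 and -0.03 on NTG vehicle. The Rps medians of TG tamoxifen and NTG tamoxifen arrays covered nearly the same range.

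**Figure D1:**
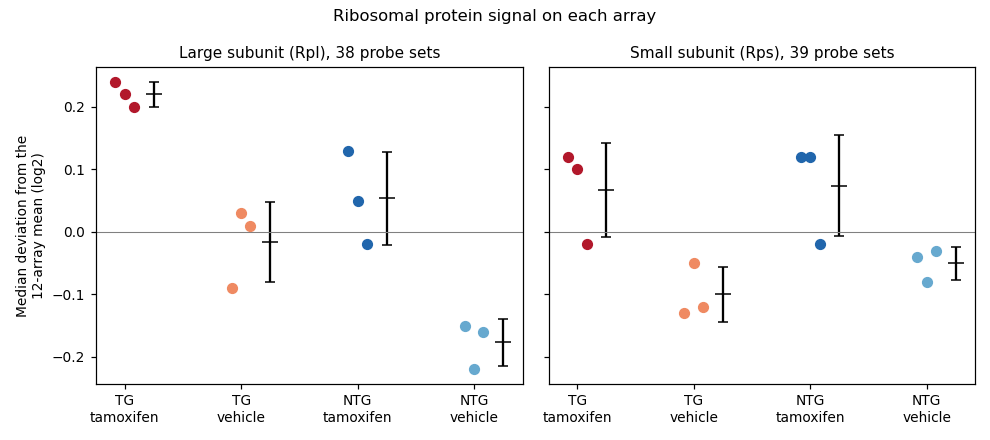
Median deviation of the tested large-subunit (left) and small-subunit (right) probe sets from their 12-array means, in log2, for each array by group. Points are arrays and the bars beside them are group mean ± SD (n = 3). Large-subunit medians are 0.22 ± 0.02 in TG tamoxifen and -0.18 ± 0.04 in NTG vehicle, and small-subunit medians are 0.07 ± 0.07 and -0.05 ± 0.03.

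The offset between the subunits moved with genotype as well. The median Rpl deviation minus the median Rps deviation was 0.13, 0.12 and 0.21 log2 on the TG tamoxifen arrays and 0.04, 0.08 and 0.13 on the TG vehicle arrays. It was 0.01, -0.08 and 0.00 on NTG tamoxifen and -0.11, -0.14 and -0.13 on NTG vehicle arrays. All 6 TG values were above all 6 NTG values. No test is given for these medians, because probe sets of one ribosome are not replicates of a condition.

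In TG tamoxifen against TG vehicle, 4 of 77 ribosomal protein probe sets rose and 0 fell (limma, adjusted p under 0.05), where 18.3% of all probe sets tested passed (8.54% higher and 9.81% lower) and 30% of those in the brightest 10%. At an unadjusted p under 0.05 there were 21 of 77 (27.3%), against 34.2% of all. The median difference was 0.30 log2 for Rpl and 0.19 for Rps, against -0.03 for all probe sets tested. These medians weight a gene by its number of probe sets, and Rps10 alone has 5, at -0.19 to 0.04. With 1 probe set per gene the Rpl and Rps medians lay closer together. The difference was positive for 59 of the 77 (31 of 38 Rpl and 28 of 39 Rps), against 48.1% of all. For 37 probe sets every TG tamoxifen array was above every TG vehicle array and for 5 every one was below, together 54.5%. Of all probe sets tested 40.7% were separated in this way, and of those in the brightest 10% 60.6%, more than of the members. Differences were small: 2 of 77 (2.6%) exceeded 2-fold in either direction, against 13.8% of all.

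**Figure D2:**
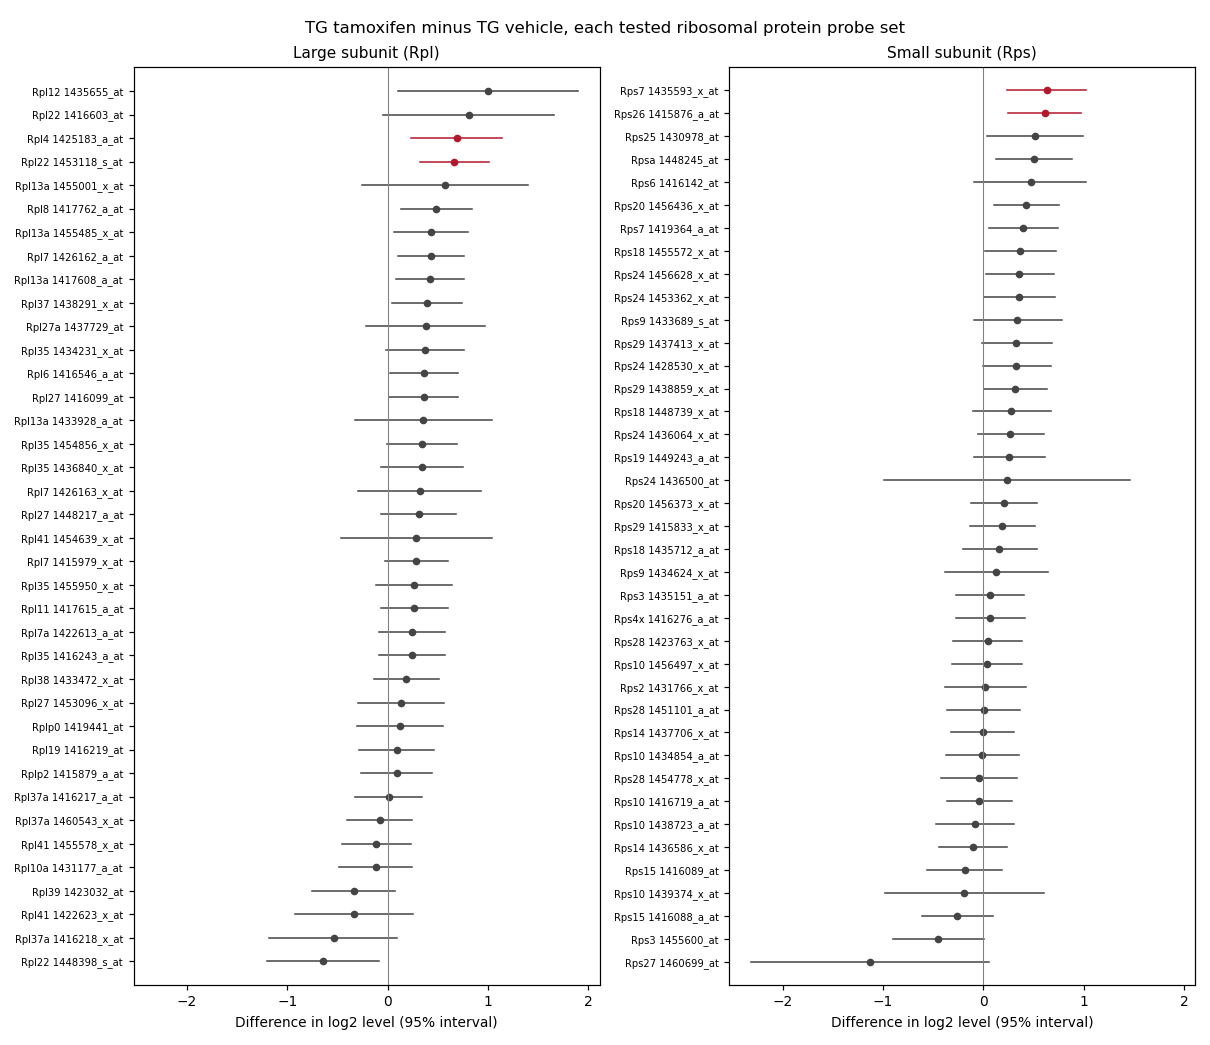
Difference in log2 level between TG tamoxifen and TG vehicle for each tested ribosomal protein probe set, with its 95% interval, large subunit on the left and small subunit on the right. Red marks the 4 probe sets past the threshold, and most of the others lie between 0 and 0.5.

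The 4 probe sets that passed belong to Rpl22, Rps26, Rps7 and Rpl4. None of the 4 passed when TG vehicle 3 was grouped with TG tamoxifen. Its treatment field says tamoxifen, but its Hspa5 signal was like that of the other TG vehicle arrays. The differences were then 0.40, 0.59, 0.44 and 0.29 log2 (adjusted p = 0.395, 0.212, 0.364 and 0.626), and 0.00888% of all probe sets passed. With TG vehicle 3 and TG tamoxifen 1, the older mouse, both left out they were 0.56, 0.67, 0.56 and 0.50 (adjusted p = 0.136, 0.0974, 0.181 and 0.26), and 3.3% of all probe sets passed. With NTG tamoxifen 1 left out as well, 0 of 77 passed, against 11.1% of all. Rpl22 is a large-subunit protein on the outer face of the ribosome. Its probe set 1453118_s_at read 17.23, 17.11 and 17.05 on TG tamoxifen 1 to 3, 16.65, 16.41 and 16.34 on TG vehicle, 16.91, 16.82 and 16.68 on NTG tamoxifen, and 16.86, 16.94 and 16.93 on NTG vehicle. TG tamoxifen was the highest group and TG vehicle the lowest, with no overlap with the other groups at either end. The difference between them was 0.66 ± 0.16 log2 (standard error, SE, as for every ± beside a log2 difference below; adjusted p = 0.0158), a 1.58-fold higher level in TG tamoxifen.

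Rps26 lies where the mRNA leaves the small subunit and contacts bases upstream of the start codon. It read 16.99, 16.90 and 16.93 on TG tamoxifen, 16.21, 16.27 and 16.50 on TG vehicle, 16.86, 16.53 and 16.55 on NTG tamoxifen, and 16.30, 16.48 and 16.31 on NTG vehicle. The TG tamoxifen arrays were above all others, and NTG tamoxifen 1, the array with a transgene-like Esr1 signal, came next. The TG difference was 0.61 ± 0.17 (adjusted p = 0.0261).

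Rps7, a small-subunit protein needed to process its ribosomal RNA, read 17.25, 17.16 and 17.02 on TG tamoxifen, 16.58, 16.49 and 16.46 on TG vehicle, 16.51, 16.37 and 15.96 on NTG tamoxifen, and 16.45, 16.33 and 16.29 on NTG vehicle with probe set 1435593_x_at. TG tamoxifen stood above the other 9 arrays, whose groups lay close together. The difference was 0.63 ± 0.18 (adjusted p = 0.0305), and the gene's other tested probe set gave 0.40 ± 0.16 (adjusted p = 0.0929).

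Rpl4, whose long extension lines the tunnel through which the new protein leaves, read 17.64, 17.51 and 17.45 on TG tamoxifen, 17.09, 16.90 and 16.55 on TG vehicle, 16.79, 16.77 and 16.17 on NTG tamoxifen, and 16.81, 16.68 and 16.77 on NTG vehicle. Here too every TG tamoxifen array was above all others. The difference was 0.69 ± 0.21 (adjusted p = 0.041).

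The start regions of these 4 genes are shown because the terminal oligopyrimidine tract is the sequence feature that marks the family. Each line gives the 20 bases before and 20 after a RefSeq start (build GRCm38.p6), with the longest run of C and T in capitals.
Rpl22, chr4:152325706-152325745, + strand: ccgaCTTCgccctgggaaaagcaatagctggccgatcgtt
Rps26, chr10:128626487-128626526, - strand: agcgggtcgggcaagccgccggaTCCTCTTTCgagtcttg
Rps7, chr12:28635934-28635973, - strand: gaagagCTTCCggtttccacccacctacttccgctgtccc
Rpl4, chr9:64173367-64173406, + strand: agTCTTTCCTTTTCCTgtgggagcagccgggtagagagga
Rpl35, chr2:39005112-39005151, - strand: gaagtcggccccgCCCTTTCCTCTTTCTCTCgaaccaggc
The longest run was 4 bases for this Rpl22 start, 9 for Rps26, 5 for Rps7 and 14 for Rpl4. Rpl35, which rose in a comparison described further on, is added as the example with a long run across the start itself, of 18 bases. The table holds another start for Rpl22, with a run of 5, and annotated starts can lie some bases away from the one a heart uses.

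Starts were found for 37 of the 42 genes, and a gene with more than 1 start counted as holding a feature if any start did. A pyrimidine run of at least 8 bases within these 40 was present in 18 of 37 genes (10 of 20 Rpl, 8 of 17 Rps; 48.6%), against 18.4% of 27025 genes in the RefSeq table. Motifs were searched on both strands in the 250 bases before and 50 after the start. CCGGAAG was present in 18 of 37 genes (48.6%) against 9.93% of all genes, AAGATGG in 7 (18.9%) against 7.28%, and TATAAA in 5 (13.5%) against 15.7%. The endoplasmic reticulum stress response element that ATF6 is known to bind with NF-Y, written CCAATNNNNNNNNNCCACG, was in 0 of 37 windows and in 0.137% of all genes' windows. These matches describe the letters in the windows and not binding.

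Other large-subunit genes did not pass in this comparison. Rpl8, which sits next to the catalytic centre, was highest on the TG tamoxifen arrays at 16.70, 16.81 and 16.57, against 16.26, 16.24 and 16.12 on TG vehicle, a difference of 0.48 ± 0.16 (adjusted p = 0.0563). Rpl13a, known in human cells for leaving the ribosome to silence inflammatory mRNAs, had 4 tested probe sets with differences of 0.35 to 0.57, and none passed. Rpl11, part of the 5S particle that can bind the p53 regulator Mdm2, differed by 0.26 ± 0.15 and Rpl38, whose loss in mice alters the body plan, by 0.18 ± 0.15. The stalk proteins, which recruit elongation factors, differed little: 0.12 ± 0.20 for Rplp0 and 0.09 ± 0.16 for Rplp2. Rpl10a, the protein of the L1 stalk, differed by -0.12 ± 0.17. For Rplp0, Rplp2 and Rpl38 the sign turned with the deposited scaling of the arrays.

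The largest Rpl differences in either direction lay on dimmer probe sets. Rpl12, at the base of the stalk, read 11.11, 11.14 and 10.62 on TG tamoxifen and 10.63, 9.18 and 10.06 on TG vehicle, with means of 10.96 and 9.96 and an adjusted p of 0.112. The groups overlapped by 1 array. The lowest was a second Rpl22 probe set, 1448398_s_at, at -0.64 ± 0.25 (adjusted p = 0.0978), opposite in sign to 1453118_s_at. The probe sets of Rpl41, among the shortest of known proteins, ran from -0.34 to 0.28.

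Among the other small-subunit genes, Rpsa, the small-subunit protein also described as a laminin receptor, read 16.89, 16.89 and 16.79 on TG tamoxifen and 16.16, 16.56 and 16.35 on TG vehicle. The groups did not overlap, and the difference was 0.50 ± 0.17 (adjusted p = 0.0635). Rps6, the protein phosphorylated by the S6 kinases of the mTORC1 pathway, differed by 0.47 ± 0.25 (adjusted p = 0.218) with all TG tamoxifen arrays above all TG vehicle arrays. Rps19, the gene most often mutated in human Diamond-Blackfan anaemia, differed by 0.26 ± 0.16. Rps3, at the mRNA entry channel, and Rps4x, on the X chromosome, differed by 0.07 ± 0.15 and 0.07 ± 0.16, and both changed sign with the deposited scaling. The most negative Rps difference, of Rps27, was -1.13 ± 0.54 (adjusted p = 0.166), with TG vehicle arrays at 10.24, 10.74 and 12.46.

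How many of these probe sets passed depended strongly on the test's settings, and those that passed were higher under every setting run except without TG vehicle 1, where 1 of 4, a Rpl41 probe set, was lower. The reported test assumes 1 prior spread for all probe sets. When the prior spread was fitted as a trend on the level, an alternative added after the values had been seen, 21 of 77 probe sets passed, against 21.2% of all probe sets tested. Most members lie in the brightest 10%, whose share under this setting is not given, so an excess over equally bright probe sets cannot be read from it. Testing only probe sets above the 75th percentile gave 11 of 71 (34.9% of all), and above the 90th 22 of 66 (45.9% of all). With no intensity filter, 0 of 94 passed, 17 of them at an unadjusted p under 0.05 (3.1% of all). With beta-actin ratio as a covariate 0 passed, as did 0% of all probe sets, with 10 members at an unadjusted p under 0.05.

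Single arrays mattered too. Without TG tamoxifen 1, from the mouse of 40 weeks, 0 of 77 passed in limma, with 9 at an unadjusted p under 0.05, against 8.35% of all. The count was 1 without TG tamoxifen 2, TG tamoxifen 3 or TG vehicle 2, against 10.6%, 11.4% and 10.5% of all, and 2 without TG vehicle 3, against 12.7%. The share of all probe sets thus fell under these settings too. Without NTG tamoxifen 1 the members' count was 8 of 78 against 22.7% of all. The 8 were 2 probe sets of Rpl22 and 1 each of Rps26, Rps7, Rpl4, Rpl8, Rpl7 and Rpsa. The medians were steadier: leaving out 1 array at a time moved the Rpl median between 0.22 and 0.34 and the Rps median between 0.14 and 0.24. Scaling moved them more. With the deposited scaling they were 0.17 and 0.01, against -0.09 for all probe sets, and with median centring 0.32 and 0.15, against 0.06. Relative to all probe sets, Rpl stood at 0.26 to 0.33 and Rps at 0.09 to 0.22 over the 3 scalings.

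**Figure D3:**
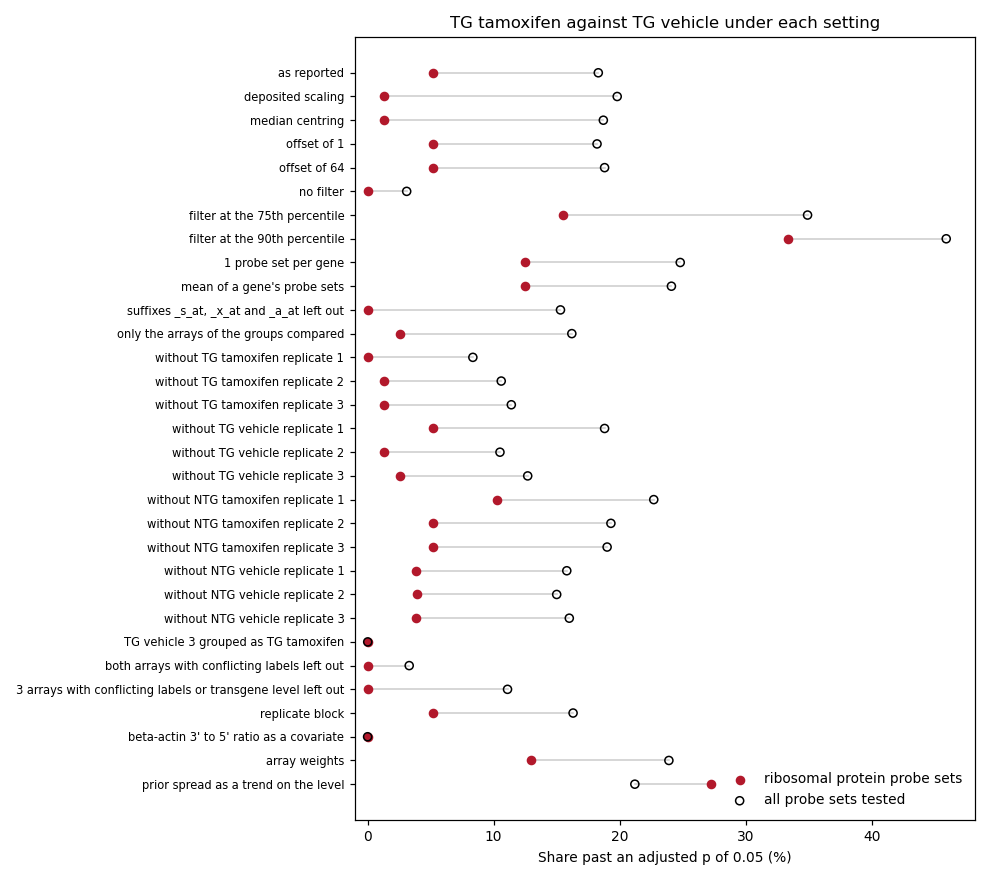
Share of ribosomal protein probe sets (red) and of all probe sets tested (open circles) past an adjusted p of 0.05 in TG tamoxifen against TG vehicle, under each processing setting. The members' share runs from 0 to 22 of 66 probe sets, and it exceeds that of all probe sets with the prior spread as a trend. The share of equally bright probe sets under that setting is not given.

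Against tamoxifen-treated mice without the transgene, members passed in both directions, 15.6% of them higher and 10.4% lower, both below the shares of all probe sets. In TG tamoxifen against NTG tamoxifen, 20 of 77 probe sets passed (12 higher and 8 lower; limma), where 37.5% of all probe sets tested passed (18.4% higher and 19.1% lower). TG and NTG arrays separated fully on 29 members in the higher direction and 23 in the lower (67.5%). This held for 49.9% of all probe sets and for 64.4% of those in the brightest 10%. Of the Rpl probe sets 7 were higher and 1 lower, and of the Rps probe sets 5 were higher and 7 lower. The median difference was 0.18 for Rpl and -0.00 for Rps, against -0.05 for all. The counts in each direction depended on scaling, for the members and for all probe sets. They were 10 higher and 14 lower with the deposited scaling, where 17.1% of all were higher and 22.1% lower. With median centring they were 17 higher and 2 lower, where 21.5% were higher and 14.9% lower. Without NTG tamoxifen 1 they were 13 higher and 7 lower of 78, against 40.6% of all. The medians were then 0.24 for Rpl and 0.04 for Rps, and 78.2% of members separated fully, against 63.8% of all. A share for equally bright probe sets is not given without that array.

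The genes that rose in this comparison come first, and by selection their TG tamoxifen levels lie above their NTG tamoxifen levels. Rps25, a small-subunit protein needed for several viral routes of translation initiation, read 11.31, 11.23 and 11.01 on TG tamoxifen and 9.91, 10.37 and 9.93 on NTG tamoxifen, with TG vehicle at 10.92, 10.36 and 10.73 and NTG vehicle at 10.47, 10.99 and 10.74. All TG tamoxifen arrays were above the other 9, and NTG tamoxifen arrays were the lowest apart from a near tie with TG vehicle 2. The difference was 1.11 ± 0.22 (adjusted p = 0.00256). Rps7 rose by 0.86 ± 0.18 (adjusted p = 0.00336) and Rpl4 by 0.96 ± 0.21 (adjusted p = 0.00454). Rpl12 rose by 1.83 ± 0.41 (adjusted p = 0.00537), from 8.24, 9.34 and 9.80 on NTG tamoxifen, where the lowest value is that of the array with the transgene-like signal. Rpl35, at the rim of the exit tunnel, rose by 0.67 ± 0.19 and 0.53 ± 0.16 on 2 of its 5 tested probe sets, and all 5 differences were positive. Rpl7 rose by 0.52 ± 0.15 and 0.91 ± 0.28 on 2 of 3 probe sets. Rps24 passed on 2 of 5 probe sets, a dim one at 1.92 ± 0.56 and a bright one at 0.44 ± 0.15, and Rpl22 on 1416603_at at 1.19 ± 0.39 (adjusted p = 0.0315). That Rpl22 probe set read 14.32 on NTG tamoxifen 1 and 16.06 and 15.84 on NTG tamoxifen 2 and 3. Without NTG tamoxifen 1 its difference was 0.65 ± 0.25 (adjusted p = 0.0632) and did not pass, nor did the bright Rps24 probe set, at 0.38 ± 0.16 (adjusted p = 0.0782). Rpl12 was then 1.39 ± 0.37 (adjusted p = 0.0127).

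Of the 8 probe sets that fell, 7 were of the small subunit. They were 17.9% of the Rps probe sets tested, against 19.1% of all probe sets and 2.63% of Rpl. On the probe set with the smallest p of each of Rps15, Rps10, Rps18, Rps28 and Rpl27, the 3 NTG tamoxifen arrays were the highest of all 12. Rps15, whose tail reaches the decoding centre, read 17.38, 17.27 and 17.45 on NTG tamoxifen and 16.74, 16.65 and 16.69 on TG tamoxifen, with TG vehicle at 16.66, 17.15 and 16.82 and NTG vehicle at 16.87, 16.73 and 16.97. Its 2 probe sets differed by -0.67 ± 0.17 (adjusted p = 0.00999) and -0.55 ± 0.16 (adjusted p = 0.0193). Rps10, at the mRNA entrance, fell on 2 of 5 probe sets, by 0.66 and 0.57 on the log2 scale, Rps28, near the mRNA exit, fell on 2 of 3, by 0.55 and 0.45 (the latter with an adjusted p of 0.0529 without NTG tamoxifen 1), and Rps18 fell on 1 of 3, by 0.60. The only large-subunit gene to fall was Rpl27, on 1 of its 3 probe sets: 15.88, 15.76 and 15.84 on NTG tamoxifen against 15.02, 14.94 and 14.96 on TG tamoxifen, a difference of -0.85 ± 0.17 (adjusted p = 0.00296). TG vehicle arrays were lower still for Rpl27, at 14.36, 14.83 and 14.82, and NTG vehicle lay between at 15.21, 15.16 and 15.33.

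**Figure D4:**
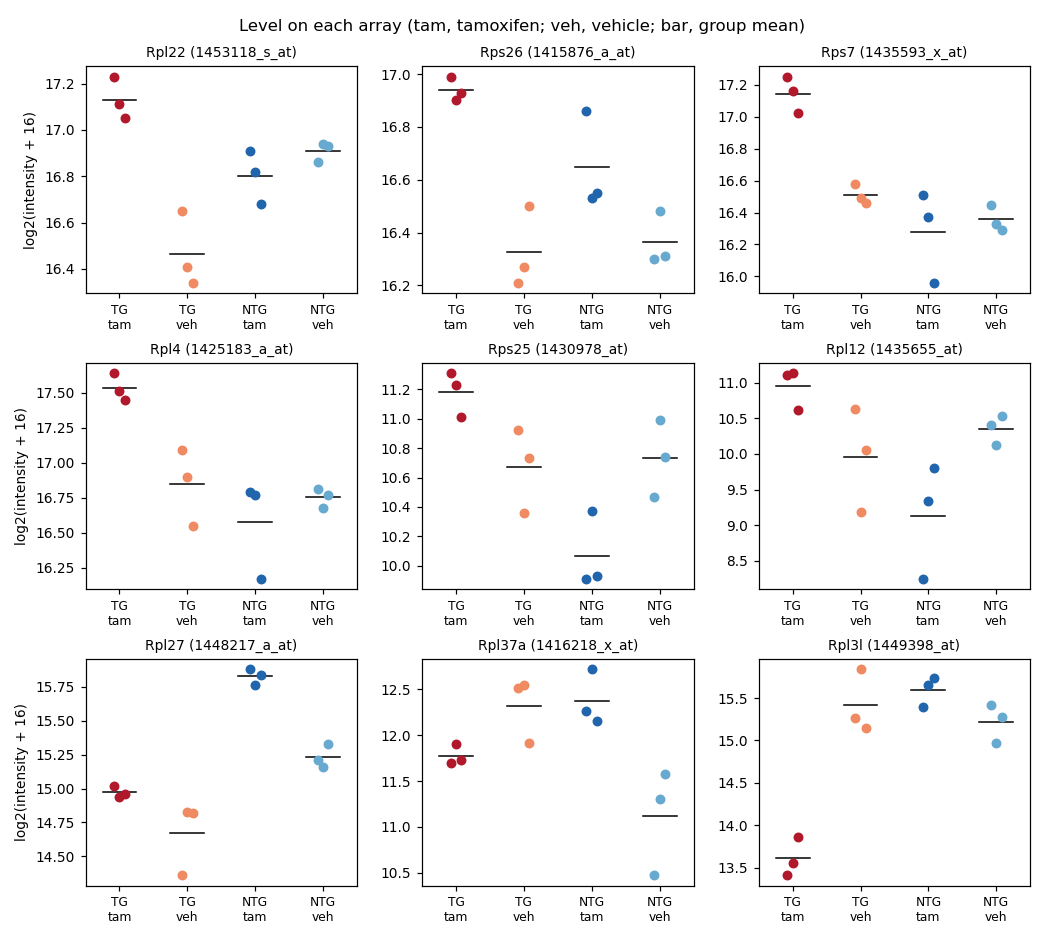
Level, log2(intensity + 16), on each array for 8 ribosomal protein probe sets and for Rpl3l, by group, with group means as bars (n = 3; each panel has its own scale, which does not start at 0). The TG tamoxifen arrays are the highest for Rpl22, Rps26, Rps7 and Rpl4, NTG tamoxifen arrays are the highest for Rpl27, and the TG tamoxifen arrays are the lowest for Rpl3l.

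Tamoxifen alone was examined in NTG mice. In NTG tamoxifen against NTG vehicle, 1 of 77 probe sets rose and 1 fell, where 3.89% of all probe sets tested passed (0.693% higher and 3.2% lower) and 22 members (28.6%) had an unadjusted p under 0.05, against 23.2% of all. Treated and vehicle arrays separated fully on 36 members in the higher direction and 8 in the lower (57.1%). This held for 29.4% of all probe sets and for 38.8% of those in the brightest 10%. The medians were 0.23 for Rpl and 0.19 for Rps against 0.02 for all, with 58 of 77 differences positive. With median centring both medians were 0.06, against -0.12 for all, with 24 of 38 Rpl and 22 of 39 Rps differences positive, so that their distance from all probe sets was 0.18 in place of 0.21 and 0.17. With the prior spread as a trend, 13 of 77 passed, 12 of them higher, against 6.47% of all, and the share of equally bright probe sets is not given. Rpl37a, a zinc-finger protein of the large subunit, rose on its dim probe set 1416218_x_at, from 10.47, 11.30 and 11.58 on NTG vehicle to 12.26, 12.72 and 12.15 on NTG tamoxifen, a difference of 1.26 ± 0.29 (adjusted p = 0.0391). Its bright probe sets 1416217_a_at and 1460543_x_at both differed by 0.26 ± 0.15 and did not pass. Rpl22 fell on 1448398_s_at by 1.03 on the log2 scale (SE 0.25, adjusted p = 0.0472), from 13.30, 13.22 and 13.13 to 11.87, 12.15 and 12.54. Without NTG tamoxifen 1, 0 of 78 passed in limma, 14 of them at an unadjusted p under 0.05, against 2.44% of all. The medians were then 0.20 for Rpl and 0.18 for Rps.

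The transgene without tamoxifen was examined in TG vehicle against NTG vehicle, where 1 of 77 probe sets rose and 0 fell, against 6.12% of all probe sets tested (3.2% higher and 2.92% lower), and 12 (15.6%) had an unadjusted p under 0.05 in limma, against 24.9% of all. Full separation was found on 14 members in the higher direction and 11 in the lower, 32.5%, which was also the share of all probe sets. Among those in the brightest 10% the share was 40.4%. The probe set that rose was again Rpl37a 1416218_x_at, at 12.51, 12.55 and 11.91 on TG vehicle, a difference of 1.21 ± 0.29 (adjusted p = 0.035). The median difference was 0.10 for Rpl and -0.02 for Rps. Rps29 had all TG vehicle arrays below all NTG vehicle arrays on each of its 3 probe sets, with differences of -0.21 ± 0.14 to -0.43 ± 0.16, and none passed. Without NTG tamoxifen 1, 2 passed, against 9.75% of all, the other being of Rpl7. Without any one of the TG tamoxifen or NTG vehicle arrays, TG vehicle 2 or TG vehicle 3, the count was 0, and 4 to 11 probe sets then had an unadjusted p under 0.05 in limma. The shares of all probe sets under these settings are not given here, so a loss particular to the members cannot be read from these counts.

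**Figure D5:**
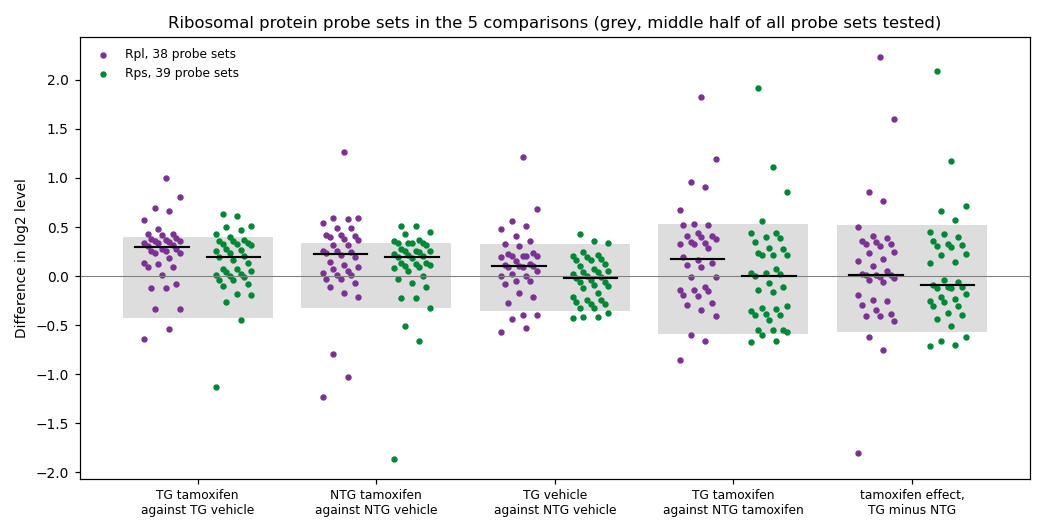
Difference in log2 level of each tested ribosomal protein probe set in the 5 comparisons, large subunit in purple and small subunit in green. Black bars are medians and grey boxes span the interquartile range of all 22518 probe sets tested. The Rpl and Rps medians are 0.30 and 0.19 in TG tamoxifen against TG vehicle and 0.18 and -0.00 in TG tamoxifen against NTG tamoxifen.

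Whether tamoxifen acted differently in the 2 genotypes was tested as the difference between its effects in TG and in NTG mice. Of 77 probe sets, 3 were higher and 1 lower, where 10.6% of all probe sets tested passed (6.12% higher and 4.52% lower), and the medians were 0.02 for Rpl and -0.09 for Rps against -0.06 for all. The effect in TG exceeded that in NTG by 2.23 ± 0.58 for Rpl12 (adjusted p = 0.0354), by 1.17 ± 0.31 for Rps25 (adjusted p = 0.0353) and by 0.77 ± 0.22 for Rpl22 on 1453118_s_at (adjusted p = 0.0489). It was lower by 1.80 on the log2 scale for Rpl37a on 1416218_x_at (-1.80 ± 0.41, adjusted p = 0.0227). Rps25 was 0.51 higher with tamoxifen in TG mice and differed by -0.66 in NTG mice, and Rpl12 was likewise higher in TG mice and differed by -1.23 in NTG mice. Without NTG tamoxifen 1 the counts were 5 higher and 2 lower of 78, against 18.6% of all, and the medians were 0.09 for Rpl and 0.01 for Rps. Without TG tamoxifen 1 the counts were 0 in limma, with 13 at an unadjusted p under 0.05, against 3.79% of all.

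Probe sets of 1 gene did not always move together. Of 18 genes with several tested probe sets, 12 had all differences of 1 sign in TG tamoxifen against TG vehicle and 6 had both signs. Among those with 3 or more, Rps28 had the smallest span, 0.08 log2 around 0, followed by Rpl35 and Rps24 with 5 probe sets each and spans of 0.13. Across the arrays, correlations between probe sets ran from 0.69 to 0.96 for Rpl35 but from 0.07 to 0.95 for Rps24. The Rps24 differences against NTG tamoxifen ran from 0.35 to 1.92. Rpl22 had the largest span, 1.45, with differences of 0.81, 0.66 and -0.64. Many of these probe sets carry suffixes that mark probes shared between transcripts: 38 of the 94 end in _x_at, 25 in _a_at and 3 in _s_at, and ribosomal protein genes have many processed pseudogenes, so their signals may include related transcripts. Among the 14 tested probe sets without such a suffix, the median Rpl difference was 0.36, and 0 passed in limma when such probe sets were left out of the test, with 3 at an unadjusted p under 0.05, against 15.3% of all. The 95 tested probe sets that list a ribosomal protein gene with other genes had 25 higher and 2 lower (26.3% and 2.11%, against 8.54% and 9.81% of all), with a median of 0.32.

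Of 6 tested relatives outside the naming rule, 1 rose and 1 fell in TG tamoxifen against TG vehicle, where 8.54% of all probe sets tested were higher and 9.81% lower. Rpl3l, the copy of Rpl3 restricted to heart and skeletal muscle, read 13.41, 13.56 and 13.86 on TG tamoxifen, 15.27, 15.84 and 15.15 on TG vehicle, 15.39, 15.65 and 15.74 on NTG tamoxifen, and 15.42, 14.97 and 15.28 on NTG vehicle. The TG tamoxifen arrays were more than 1 log2 unit below all others, and the fall was 1.81 on the log2 scale (SE 0.23, adjusted p = 0.0023). It passed under 28 of 30 alternative settings. With TG vehicle 3 grouped as TG tamoxifen it did not, at -1.56 ± 0.41 (adjusted p = 0.194), where 0.00888% of all probe sets passed. The difference between the genotypes' tamoxifen effects was -2.18 ± 0.32 (adjusted p = 0.0107), and it passed under 25 of 29 alternative settings. Rpl3 itself has no probe set with a single symbol, and the same holds for Rpl5, Rpl10, Rplp1 and Rps27a. Rps27l, a p53-induced copy of Rps27, rose by 0.79 ± 0.20 (adjusted p = 0.0221). Fau, which encodes Rps30 behind a ubiquitin-like tag, differed by -0.40 ± 0.17 (adjusted p = 0.121), and Rpl22l1, the copy of Rpl22, by 0.30 ± 0.20 (adjusted p = 0.322), and Rpl39l lay below the filter.

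The machinery that makes ribosomes stood beside this. Of 49 tested ribosome biogenesis genes, 21 rose in TG tamoxifen against TG vehicle and 0 fell, with a median of 0.55, where 18.3% of all probe sets tested passed. Each gene of this and the other lists was read on its brightest probe set with a single symbol. The share of all genes that passed with 1 probe set per gene, given in the closing section, was higher than 18.3%. Ddx10, an RNA helicase of small-subunit assembly, rose by 1.83 ± 0.20 (adjusted p = 0.00204). Tsr1, a late small-subunit assembly factor, rose by 1.56 ± 0.24 (adjusted p = 0.00313), and Ebna1bp2, a factor of large-subunit assembly, by 1.49 ± 0.23 (adjusted p = 0.00319). Ddx10 read 12.18, 11.98 and 12.24 on TG tamoxifen and no more than 10.89 on the other 9 arrays. In TG tamoxifen against NTG tamoxifen the list had 21 higher and 1 lower, where 18.4% of all probe sets were higher and 19.1% lower.

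Other translation genes were mixed in TG tamoxifen against TG vehicle, where 8.54% of all probe sets tested were higher and 9.81% lower. Among probe sets in the brightest 10%, 30% passed in either direction. Of 30 initiation factors 5 rose and 1 fell, led by Eif1a at 3.05 ± 0.45 (adjusted p = 0.00278), Eif5 at 1.23 ± 0.21 (adjusted p = 0.00474) and Eif1ax at 0.87 ± 0.15 (adjusted p = 0.0049). Of 10 elongation factors and further terminal oligopyrimidine mRNAs, the poly(A)-binding protein gene Pabpc1 rose by 0.78 ± 0.22 (adjusted p = 0.0291) and Eef1a2, the muscle and nerve form of the elongation factor that delivers aminoacyl-tRNA, fell by 1.50 on the log2 scale (SE 0.26, adjusted p = 0.0045). RNA polymerase I and its factors had 3 higher and 1 lower of 18, with Polr1a at -1.01 ± 0.22 (adjusted p = 0.0103), Twistnb at 0.70 ± 0.18 (adjusted p = 0.019) and Polr1e at 0.94 ± 0.25 (adjusted p = 0.0231). The mTORC1 list had 3 higher and 3 lower of 27, with the inhibitor Tsc2 at -1.32 ± 0.29 (adjusted p = 0.0113), Rragd at 1.60 ± 0.35 (adjusted p = 0.0113) and the activator Rheb at 1.15 ± 0.29 (adjusted p = 0.0211). Ribosome quality control had 3 higher and 1 lower of 13, including Abce1, a ribosome recycling factor, at 0.87 ± 0.21 (adjusted p = 0.0154). The eIF2 alpha kinases and phosphatases had 3 higher and 0 lower of 6, with Eif2ak3, the endoplasmic reticulum stress kinase PERK, at 1.96 ± 0.29 (adjusted p = 0.00278).

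Markers of other cell types also passed the test in that comparison, where 8.54% of all probe sets tested were higher and 9.81% lower. Of 8 tested macrophage and leukocyte markers 3 rose and 0 fell, and the summed intensity of the list's 9 markers was 97100 to 151000 on TG tamoxifen, 53300 to 105000 on TG vehicle, 46300 to 47400 on NTG tamoxifen and 52400 to 59300 on NTG vehicle arrays. Of 5 tested cell cycle genes 4 rose and 0 fell, with sums of the 7 measured genes of 53400 to 75100 on TG tamoxifen, 21600 to 24800 on TG vehicle, 11400 to 49300 on NTG tamoxifen and 13200 to 18500 on NTG vehicle. Of 7 endothelial markers 0 rose and 3 fell, with sums of 33100 to 37200 on TG tamoxifen, 41700 to 54300 on TG vehicle, 34600 to 41600 on NTG tamoxifen and 48300 to 51600 on NTG vehicle. None of the 10 cardiomyocyte markers passed in limma, and their summed intensity was 2410000 to 2540000 on TG tamoxifen and 2590000 to 2700000 on the other arrays. The part of these shifts in the ribosomal protein values was not tested.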

How the data were processed

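Total RNA of 12 left ventricles was hybridised to 12 arrays. The values the authors deposited are linear intensities of whole probe sets. Their trimmed mean was 2500.02 on every array (2% trimmed at each end), as left by a global scaling to a common target. Per the labels' protocols the Affymetrix procedure was followed, and the software behind the values is not given in the sources used here. Values were taken as log2(intensity + 16) and quantile normalized. Of 45101 probe sets, 64 controls were left out, and 22518 with a mean at or above the 50th percentile (9.42 log2, an intensity of about 670.3) were tested, since dim probe sets carry mostly noise. Symbols came from the platform annotation: 34945 probe sets had 1, 932 several and 9160 none.

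All 12 arrays entered a single model with a mean for each of the 4 groups, fitted in limma 3.58.1 (R 4.3.3) with moderated, two-sided tests (residual degrees of freedom 8, prior 3.61). Within each comparison the Benjamini-Hochberg adjustment ran over all 22518 probe sets, and 0.05 was the threshold. The test was checked on simulated data. Fold changes are on the offset scale. With 3 arrays per group, the number of arrays limits the precision. Replicate numbers do not pair mice: same-numbered arrays of different groups had correlations of deviations from -0.0981 to 0.12, and differently numbered ones from -0.126 to 0.162.

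Genes were named by a rule: a fixed set of ribosomal proteins and relatives, up to 10 called genes in each direction, the extremes of each subunit, and up to 3 genes of each list. Rps29 and the probe sets called without NTG tamoxifen 1 were chosen after their values were seen. Members and lists were chosen with earlier results of these data known. Alternatives covered scaling, offset, filter, probe set choice, array weights, a beta-actin covariate, arrays left out or regrouped, a replicate block and, added after seeing the data, a prior spread following the level. Start sequences are RefSeq's for GRCm38.p6, read with Python 3.11.15 and pandas 2.3.3.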

Additional observations from a re-analysis of the deposited data

Results flagged for a closer look

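For 4 probe sets the tamoxifen effect in TG mice differed from that in NTG mice by a test of the difference itself (limma, all arrays). The effect was higher in TG by 2.23 log2 for Rpl12 (1435655_at), by 1.17 for Rps25 (1430978_at) and by 0.77 for Rpl22 (1453118_s_at). For Rpl37a (1416218_x_at) the difference was -1.80. The probe sets of Rpl12, Rps25 and Rpl37a were dimmer than most of the family, with mean levels of 10.1, 10.66 and 11.9 on the log2 scale, and the brighter probe sets of Rpl37a gave -0.25 ± 0.22 (1416217_a_at) and -0.35 ± 0.21 (1460543_x_at) and did not pass. With NTG tamoxifen 1 left out, all 4 were among the 7 that passed. With TG vehicle 3 counted as tamoxifen-treated, 0 of 77 passed, with 6 at an unadjusted p under 0.05 in limma.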

How the results depend on the processing

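Counts of ribosomal protein probe sets past the threshold are given here in the order of tamoxifen in TG mice (4 as reported), tamoxifen in NTG mice (2), genotype under vehicle (1), genotype under tamoxifen (20) and the difference of the tamoxifen effects (4), with the percentages of all probe sets tested that passed in brackets (18.3, 3.89, 6.12, 37.5 and 10.6 as reported). With no filter they were 0, 0, 0, 6 and 0 (3.1, 0.0666, 0.198, 13.7 and 0.0355), above the 75th percentile 11, 4, 4, 27 and 8 (34.9, 11.8, 15.1, 54.1 and 24.9), and above the 90th 22, 11, 8, 33 and 9 (45.9, 17.5, 18.2, 59.4 and 31.9). With the deposited scaling they were 1, 2, 2, 24 and 5 (19.8, 3.55, 6.34, 39.2 and 11.5), and with median centring 1, 2, 0, 19 and 5 (18.7, 6.72, 7.34, 36.5 and 12.8). With 1 probe set per gene they were 5, 0, 0, 7 and 3 (24.8, 4.37, 3.63, 39.5 and 14.3), with the mean of a gene's probe sets 5, 0, 0, 12 and 4 (24.1, 3.17, 3.15, 39.2 and 13.8), and without shared-probe suffixes 0, 0, 0, 5 and 2 (15.3, 3.25, 4.89, 35.4 and 8.7). With only the arrays compared, the first 4 were 2, 0, 0 and 12 (16.2, 0.253, 2.28 and 31.4). With TG vehicle 3 grouped as TG tamoxifen they were 0, 0, 0, 12 and 0 (0.00888, 0.604, 0.413, 27.9 and 0.00444). Without TG vehicle 3 and TG tamoxifen 1 they were 0, 0, 0, 9 and 0 (3.3, 0.04, 0.142, 27.8 and 0.0533), and without these and NTG tamoxifen 1 they were 0, 0, 0, 10 and 1 (11.1, 0.0622, 0.653, 33.5 and 9.65). The beta-actin covariate gave 0, 0, 0, 24 and 0 (0, 0, 0, 39 and 0), array weights 10, 4, 4, 29 and 10 (23.9, 6.24, 12.4, 41.2 and 18.9), and the prior spread as a trend, added after seeing the data, 21, 13, 10, 40 and 13 (21.2, 6.47, 8.62, 38.9 and 14.4). With the replicate number as a block they were 4, 0, 1, 17 and 1 (16.3, 0.822, 3.89, 35.7 and 8.18), although the numbers do not pair the mice. Leaving out 1 array gave 0 to 8, 0 to 4, 0 to 2, 9 to 25 and 0 to 8. These ranges stand without the shares of all probe sets, which also moved with the array left out where they are given above. In TG tamoxifen against TG vehicle, limma gave 17, 3, 5, 4, 8 and 10 members at an unadjusted p under 0.05 for the counts of 0, in the order given. Offsets of 1 and 64 left all 5 counts as reported.

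In TG tamoxifen against TG vehicle, the Rpl median, 0.30 as reported, was 0.17 with the deposited scaling and 0.36 without shared-probe suffixes or with the beta-actin covariate, and leaving out 1 array gave 0.22 to 0.34. The Rps median, 0.19, was 0.01 with the deposited scaling, 0.26 with 1 probe set per gene or their mean and 0.12 with TG vehicle 3 regrouped, and leaving out 1 array gave 0.14 to 0.24. With 1 probe set per gene the Rps median thus lay nearer the Rpl median. The distance between the subunits therefore depends on how probe sets are counted. Signs turned for 7 named genes. With the deposited scaling these were Rplp0 at -0.08, Rplp2 at -0.09, Rps3 at -0.04, Rpl38 at -0.04 and Rps4x at -0.10. With TG vehicle 3 regrouped they were Rps3 at -0.00, Rpl10a at 0.01 and Rps4x at -0.07. Without TG vehicle 3 and TG tamoxifen 1, Rplp2 was -0.01, Rps3 -0.02 and Rps4x -0.04, and without these and NTG tamoxifen 1 they were -0.01, -0.02 and -0.03. Rps4x was -0.01 without TG vehicle 3 (-0.01 to 0.15 over the arrays left out), Rps3 -0.19 as a mean of its probe sets and Rpl10a 0.12 with the covariate. Against NTG tamoxifen, Rps18 was 0.02 with 1 probe set per gene. The cause of these changes was not tested.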
